A study of Danio rerio with 24 samples.

Results

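Keratins are the intermediate filament proteins of epithelial cells, and each filament is built from a type II keratin paired with a type I keratin. In vertebrates *krt8* (type II) and the *krt18* genes (type I) form the pair of simple, single-layered epithelia, a class that includes the retinal pigment epithelium (RPE), while stratified skin carries other pairs. Keratin filaments are anchored at desmosomes and hemidesmosomes and give epithelial sheets their mechanical strength. This account follows 6 keratin genes, *krt8*, *krt4*, *krt5*, *krt17*, *krt91* and *krt97*, picked by name among the 25281 genes of the deposited tables. *krt8* was taken as the simple epithelial keratin and the other 5 as epidermal keratins. No member was absent. The names were chosen with measured values of these libraries known, so the members' levels and fold changes are given as a description, with no test. A further 17 genes carry a keratin name, 23 in all, and those 17 were tested in the fit across all genes.

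RNA was measured in eGFP+ cells sorted from eyes of *rpe65a*:nfsB-eGFP larvae, in which the *rpe65a* promoter drives a fusion of nitroreductase and eGFP in the RPE. Nitroreductase turns metronidazole (MTZ) into a toxic product. MTZ+ larvae received 10 mM MTZ at 5 days post-fertilization (dpf) for 24 h and lost RPE cells, and MTZ- larvae carried the same transgene without MTZ. Each set was kept in DMSO, the vehicle, or in 2 µM rapamycin, an inhibitor of the mTOR kinase, from 24 h before MTZ, and cells were collected at 2 days post-injury (dpi; 7 dpf) and 4 dpi (9 dpf). Ablated and intact larvae, each with or without rapamycin, at both times make 8 groups of 3 libraries, 24 in all. All larvae had been in the pigment inhibitor PTU from 6 hours post-fertilization to 5 dpf. A library pooled about 80 eyes of about 40 larvae and held at most 1000 cells. In such bulk samples a change in the number of cells of a type and a change in RNA per cell cannot be told apart, and the MTZ+ groups hold the cells that survived or arose after ablation.

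Total counts on genes ran from 20607731 to 37189527 per library, and at 2dpi every MTZ+ DMSO library held fewer counts than every MTZ+ rapamycin library. Levels are CPM, read counts scaled for library depth with TMM factors over all 24 libraries, and per-length levels (TPM) are the deposited ones. RPE markers summed to 16042 to 118682 CPM across the libraries, and all 9 of them were counted in each group. One library stood apart for the keratins. MTZ- rapamycin replicate 1 at 2dpi had counts for 23 of 23 matched markers of skin and other surface epithelium that are not keratins, against 9 to 19 in the other 23 libraries. At 4dpi the group letters in the raw names of the MTZ+ replicate 2 libraries are reversed relative to the other replicates, and the sample titles were followed. These replicate 2 libraries held 30716905 counts under DMSO and 23743339 under rapamycin. Replicates 1 and 3 held 20607731 and 20950454 under DMSO and 33669100 and 37189527 under rapamycin. By title, summed Müller glia markers at 4dpi ran from 21184 to 36044 CPM in MTZ+ DMSO and from 1137 to 5120 in MTZ+ rapamycin. Whether letters or titles are right was not tested. Some values that rest on MTZ- rapamycin replicate 1 at 2dpi or these replicate 2 libraries are given with and without them. Others are given only with them.

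The 23 keratin genes lie in a few clusters of GRCz11, the build of the files. *krt5* (10173196 to 10177458, minus strand), *krt8* (10249626 to 10254288, minus strand), *krt18a.1* (10347851 to 10351754, plus strand) and *krt18a.2* lie within 182 kb on chromosome 23. *krt97* (11756040 to 11759106, plus strand) lies on chromosome 22 between *krt222* and *krt96*, within 62.1 kb. *krt17* (5367330 to 5372572) and *krt91* (5378563 to 5380770), both on the minus strand, belong to a run of 7 keratin genes in 56.1 kb on chromosome 19 that also holds *krtt1c19e*, *cyt1l* and *cyt1*. *krt4* (39308498 to 39313027, minus strand) is on chromosome 6 near *krt18b*. No member overlaps another annotated gene, whereas *krt96* overlaps *ptpn4b*. How reads that match several places were counted is not given in the sources used here, so the split of reads among the related keratins of chromosome 19 is uncertain.

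*krt8*, the type II keratin of simple epithelia, was low in intact RPE and high after ablation. At 2dpi the MTZ- DMSO libraries held 2.27, 0.889 and 11.4 CPM and the MTZ+ DMSO libraries 63.6, 35.0 and 46.3 CPM. Every ablated DMSO library lay above every intact one, and the fitted log2 fold change was 3.36 ± 1.11 (SE, n = 3 libraries a group). At 4dpi the intact DMSO libraries held 1.94, 0.731 and 3.34 CPM and the ablated ones 49.6, 73.0 and 44.1 CPM. The groups lay further apart than at 2dpi, with a log2 fold change of 4.87 ± 0.80 (SE). Without MTZ- DMSO replicate 3, the intact DMSO library with the most *krt8* at each time, these values were 4.96 at 2dpi and 5.46 at 4dpi. In raw counts these were 20 to 332 reads in the intact DMSO libraries of both times and 1066 to 2788 in the ablated ones. Of 5 Müller glia markers 4 were called higher in the same contrast at 2dpi (median log2 fold change 2.70), where 11.3% of all genes were. At 4dpi 4 of 5 were called higher (median 4.56), where 14.3% of all genes were. *glula* was called at neither time. The part of glia content in the ablation rises of *krt8*, *krt18a.1* and *krt18b* was not tested.

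At 2dpi *krt8* lay lower in ablated RPE under rapamycin than under DMSO. The MTZ+ rapamycin libraries held 18.01, 9.21 and 7.46 CPM, all below the 3 MTZ+ DMSO libraries, and the log2 fold change of rapamycin was -2.05 ± 1.05 (SE). In the same contrast summed Müller glia markers were lower under rapamycin, at 2506 to 3679 against 9608 to 16013 CPM, and summed RPE markers higher, at 38552 to 67913 against 16042 to 31594 CPM. The largest parts of the glia sum by mean CPM over all libraries were *glula* (6599) and *apoeb* (3626). Intact libraries at 2dpi held 5583 to 10524 CPM of it under DMSO and 9121 to 10582 under rapamycin. Of the 5 glia markers 1, *glula*, was called lower by rapamycin in ablated RPE at 2dpi, where 0.53% of all genes were called. The part of glia and RPE content in the *krt8* values was not tested. At 4dpi the MTZ+ rapamycin libraries held 15.8, 74.6 and 54.8 CPM, which spanned the DMSO range, and the log2 fold change was -0.20 ± 0.67 (SE), which became 0.21 without MTZ+ rapamycin replicate 1. Replicate 1 lay below the 3 DMSO libraries and the other replicates within or above them. In intact RPE rapamycin and DMSO overlapped at both times, with 8.65, 0.898 and 0.524 CPM at 2dpi and 6.81, 1.79 and 1.498 CPM at 4dpi under rapamycin. The log2 fold change of ablation under rapamycin was 1.79 ± 1.05 (SE) at 2dpi, where the groups overlapped, and 3.85 ± 0.76 (SE) at 4dpi, where they did not. Without MTZ- rapamycin replicate 1, the library with the surface markers, the 2dpi value was 4.03, and without replicate 1 of MTZ- rapamycin at 4dpi the 4dpi value was 4.87. Without replicate 2 of both MTZ+ groups the 4dpi values were 4.62 for ablation under DMSO, 3.41 for ablation under rapamycin and -0.40 for rapamycin in ablated RPE.

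Ordered by mean CPM, *krt8* was highest in MTZ+ DMSO at 4dpi (55.6 ± 15.3, SD, n = 3), MTZ+ rapamycin at 4dpi (48.4 ± 29.9) and MTZ+ DMSO at 2dpi (48.3 ± 14.4), and these groups overlapped. MTZ+ rapamycin at 2dpi followed with 11.6 ± 5.66 CPM. The 4 intact groups had means of 2.00 to 4.84 CPM and overlapped one another. The levels at 2dpi and 4dpi stand side by side here and their difference was not tested.

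**Figure D1:**
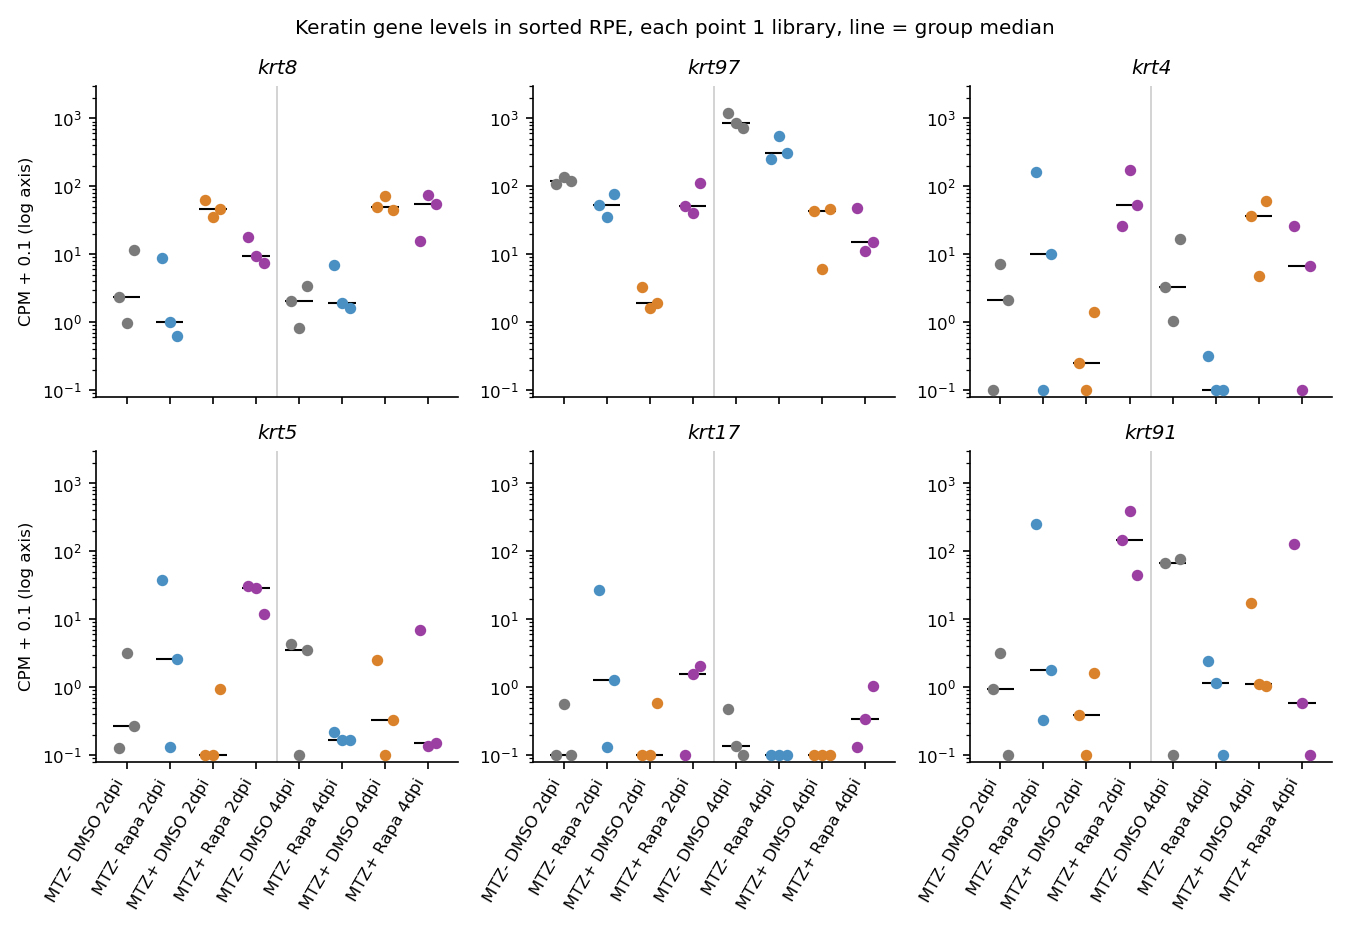
Level of each of the 6 keratin genes in each library, as CPM + 0.1 on a log axis, by group. Points are single libraries, horizontal lines are group medians, and the grey vertical line parts 2dpi from 4dpi. *krt8* sits between 35.0 and 73.0 CPM in the 6 MTZ+ DMSO libraries, *krt97* is lowest in MTZ+ DMSO at 2dpi, and *krt4*, *krt5*, *krt17* and *krt91* spread widely within groups, *krt91* in MTZ- rapamycin at 2dpi from 0.233 to 252 CPM.

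The type I partners of *krt8* were not among the chosen genes and were tested. *krt18a.1*, the neighbour of *krt8*, was nearly absent from intact DMSO libraries at 2dpi, with 1, 0 and 5 counts, and had 4997, 2240 and 1663 counts in ablated ones. It rose on ablation by 10.73 ± 1.56 on the log2 scale (SE, adjusted p = 0.000629; edgeR quasi-likelihood fit, p-values adjusted by Benjamini-Hochberg over every gene fitted, as throughout), a size that rests on the 6 counts of the intact libraries. At 4dpi it rose by 7.94 ± 1.23 (SE, adjusted p = 0.00124), from 0 to 21 counts in the intact libraries to 898 to 3804. Under rapamycin *krt18a.1* rose on ablation as well, by 3.87 ± 1.08 at 2dpi (SE, adjusted p = 0.0314) and by 7.42 ± 1.16 at 4dpi (SE, adjusted p = 0.00202). The intact rapamycin libraries at 2dpi held 9 to 110 counts, the 110 in replicate 1, the library with the surface markers. Over the alternative runs the 2dpi value ran from 2.29 to 5.52. The 2dpi call under rapamycin was lost without MTZ+ rapamycin replicate 1 (log2 fold change 2.29, adjusted p = 0.14), without MTZ- rapamycin replicate 2 (adjusted p = 0.106) or replicate 3 (adjusted p = 0.126). That call was also lost without the filter on low counts (adjusted p = 0.0659) and with only the compared groups (adjusted p = 0.0598).

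The effect of rapamycin on *krt18a.1* within ablated RPE did not pass the edgeR test used here. The paper lists the gene as lower in this contrast at 2dpi by its own test. At 2dpi the MTZ+ rapamycin libraries held 1663, 295 and 128 counts, which in CPM (47.8, 7.76 and 5.62) lay below all 3 MTZ+ DMSO libraries (184, 73.6 and 66.4). The log2 fold change was -2.41 ± 0.99 (SE, adjusted p = 0.324), and with the replicate block, which pairs libraries that share a date in their raw names, it was -2.88 with an adjusted p of 0.0401. At 4dpi the direction differed, with 58.6, 295 and 326 CPM under rapamycin against 40.4, 98.3 and 147.9 under DMSO, and the change of 1.25 ± 0.88 (SE) did not pass (adjusted p = 0.495). Without replicate 2 of both MTZ+ groups the 4dpi values of *krt18a.1* were 7.92 and 7.20 for ablation under DMSO and rapamycin, both still called, and 1.05 for rapamycin in ablated RPE. *krt18b*, the other counted *krt18* gene, was present in all 24 libraries at 75 to 2209 counts. It rose on ablation at 4dpi under DMSO (2.55 ± 0.75, SE, adjusted p = 0.0253) and under rapamycin (2.87 ± 0.76, SE, adjusted p = 0.0221), and at 2dpi its log2 fold changes of 1.04 and 1.17 did not pass. The 4dpi call under DMSO was lost without MTZ- DMSO replicate 1 or 2 or MTZ+ DMSO replicate 1 or 2 (adjusted p from 0.0501 to 0.0878), and that under rapamycin without replicate 2 or 3 of MTZ- rapamycin or replicate 2 of MTZ+ rapamycin (adjusted p from 0.0808 to 0.0844). The call under rapamycin was also lost without replicate 2 of both MTZ+ groups (2.12, adjusted p = 0.104) and with only the compared groups (2.87, adjusted p = 0.0587). *krt18a.2* had no count in any library, which allows at most 0.0742 to 0.135 CPM by the floor of 3 counts. Across the 24 libraries log2 CPM of *krt8* ran with that of *krt18a.1* (Pearson r = 0.888) and *krt18b* (r = 0.842). These correlations describe the libraries, whose groups they share.

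*krt97* followed another course from *krt8* and from the rest of the genes it was grouped with. It was counted in all 24 libraries, with 46 to 28461 reads, and was the member with the highest mean CPM in 3 of the 8 groups. Its levels therefore go against placing it with *krt4*, *krt5*, *krt17* and *krt91*, each of which was at 0 in 4 to 12 libraries, and it is described by its own name. At 2dpi the MTZ- DMSO libraries held 108, 137 and 119 CPM and the MTZ+ DMSO libraries 3.20, 1.51 and 1.84 CPM. All ablated libraries lay below all intact ones, and the log2 fold change was -5.77 ± 0.49 (SE). At 4dpi the intact DMSO libraries held 1198, 865 and 722 CPM and the ablated ones 43.6, 6.07 and 46.2 CPM, again without overlap, with a log2 fold change of -4.79 ± 0.80 (SE).

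At 2dpi *krt97* lay higher under rapamycin in ablated RPE and lower under rapamycin in intact RPE. The MTZ+ rapamycin libraries held 50.8, 41.0 and 113.6 CPM, all above the MTZ+ DMSO libraries, with a log2 fold change of 4.98 ± 0.47 (SE). The MTZ- rapamycin libraries held 52.6, 35.8 and 76.9 CPM, all below the MTZ- DMSO libraries, with a log2 fold change of -1.13 ± 0.40 (SE). As a result intact and ablated RPE overlapped under rapamycin, at a log2 fold change of 0.34 ± 0.40 (SE). Summed RPE markers differed in the same direction in ablated RPE and not in intact RPE. They ran from 16042 to 31594 CPM in MTZ+ DMSO and from 38552 to 67913 in MTZ+ rapamycin, but from 69057 to 87366 in MTZ- DMSO and from 79588 to 118682 in MTZ- rapamycin, where *krt97* was lower. The median log2 fold change of the 9 RPE markers was 1.19 for rapamycin in ablated RPE and 0.29 in intact RPE, against 0.02 and 0.00 over all genes tested, and the part of RPE content in the *krt97* values was not tested.

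At 4dpi *krt97* in ablated RPE overlapped between treatments, with 48.7, 11.2 and 15.2 CPM under rapamycin (log2 fold change -0.32 ± 0.68, SE; 0.04 without MTZ+ rapamycin replicate 2 and -1.28 without replicate 1). In intact RPE the rapamycin libraries held 254, 553 and 308 CPM, all below the 3 DMSO libraries (-1.30 ± 0.69, SE). Ablation under rapamycin had a log2 fold change of -3.81 ± 0.76 (SE), without overlap. Without replicate 2 of both MTZ+ groups the ablation values were -4.29 under DMSO and -3.45 under rapamycin, and that of rapamycin in ablated RPE was -0.45. Without MTZ+ rapamycin replicate 1 the ablation value under rapamycin was -4.77. Ordered by mean CPM, *krt97* was highest in MTZ- DMSO at 4dpi (928 ± 244, SD, n = 3), then in MTZ- rapamycin at 4dpi (372 ± 159) and MTZ- DMSO at 2dpi (122 ± 14.8), and no neighbours overlapped down to there. MTZ+ rapamycin at 2dpi (68.4 ± 39.4), MTZ- rapamycin at 2dpi (55.1 ± 20.7), MTZ+ DMSO at 4dpi (31.9 ± 22.4) and MTZ+ rapamycin at 4dpi (25.03 ± 20.6) overlapped with their neighbours, and MTZ+ DMSO at 2dpi (2.18 ± 0.90) lay below every other group.

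The neighbours of *krt97* on chromosome 22 were tested, and both fell on ablation under DMSO. *krt96* went from 595, 585 and 740 counts in MTZ- DMSO at 2dpi to 5, 15 and 80 in MTZ+ DMSO, a log2 fold change of -3.89 ± 0.87 (SE, adjusted p = 0.00581). At 4dpi it fell by 3.74 ± 0.83 (SE, adjusted p = 0.00686). *krt222* had the most reads of all keratin genes, 2643 to 22698 per library, and fell by 2.00 ± 0.24 at 2dpi (SE, adjusted p = 0.000105) and by 2.097 ± 0.45 at 4dpi (SE, adjusted p = 0.00598). These 4 calls held in every alternative run, the removal of each library in turn included. RPE markers fell in the same contrast. At 2dpi 9 of 9 were called lower (median log2 fold change -1.70), where 9.9% of all genes tested were called lower. At 4dpi 4 of 9 were (median -1.21), where 9.14% of all genes were. The part of RPE content in the ablation falls of *krt97*, *krt96* and *krt222* was not tested. The overlap of *krt96* with *ptpn4b* is one of whole gene spans, and whether their exons overlap was not examined. With strand not stated in the counting, how reads in the overlap were assigned is not known.

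Under rapamycin *krt222* fell on ablation at 2dpi as under DMSO (-1.98 ± 0.24, SE, adjusted p = 0.000168), while *krt96* did not (0.00 ± 0.77, SE, adjusted p = 1.00). *krt96* under rapamycin in ablated RPE at 2dpi held 7.96, 3.10 and 14.6 CPM, against 0.184, 0.493 and 3.19 under DMSO. Its change of 2.74 ± 0.84 (SE) did not pass over all genes (adjusted p = 0.162), and passed without MTZ+ DMSO replicate 3 (4.65, adjusted p = 0.0414), in DESeq2 (2.72, adjusted p = 0.0174) and with the replicate block (3.08, adjusted p = 0.0474). The corresponding change of *krt222* was 0.24 ± 0.24 (SE, adjusted p = 0.754). At 4dpi under rapamycin the ablation changes of *krt222* (-1.34 ± 0.44, SE, adjusted p = 0.0529) and *krt96* (-2.34 ± 0.78, SE, adjusted p = 0.0559) did not pass, and both passed with the replicate block (adjusted p = 0.0334 and 0.0158). Across the 24 libraries log2 CPM of *krt97* ran with *krt96* (r = 0.927) and *krt222* (r = 0.807), and with *krt8* at r = -0.735.

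**Figure D2:**
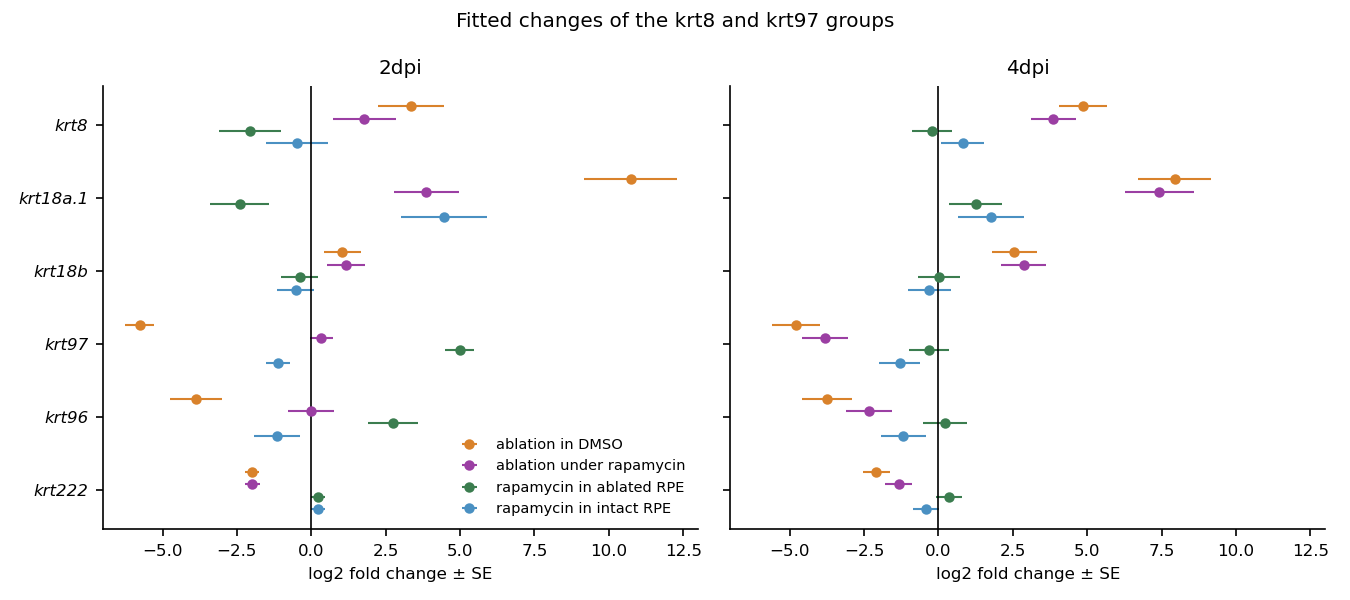
Fitted log2 fold changes ± SE of *krt8*, *krt18a.1*, *krt18b*, *krt97*, *krt96* and *krt222* in the 4 comparisons at 2dpi (left) and 4dpi (right). Points right of 0 are higher in ablated RPE (orange, purple) or under rapamycin (green, blue). *krt97* stands at -5.77 for ablation in DMSO and at 4.98 for rapamycin in ablated RPE at 2dpi, and at 4dpi the latter is -0.32.

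The remaining members, *krt4*, *krt5*, *krt17* and *krt91*, are keratins of the zebrafish body surface or its chromosome 19 cluster, with *krt4* and *krt5* of type II and *krt17* and *krt91* of the type I run. Levels of *krt4*, *krt5* and *krt91* were high in MTZ+ rapamycin at 2dpi and in a few libraries of other groups. *krt17* was highest in MTZ- rapamycin replicate 1 at 2dpi (27.2 CPM) and held at most 1.98 CPM in MTZ+ rapamycin at 2dpi. *krt91* held 149, 388 and 45.3 CPM in MTZ+ rapamycin at 2dpi and 0.295, 0 and 1.52 CPM in MTZ+ DMSO. *krt4* held 25.9, 173 and 52.3 CPM against 0.147, 0 and 1.32. *krt5* held 30.6, 28.5 and 11.9 CPM against 0, 0 and 0.838.

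For these 3 genes every rapamycin library lay above every DMSO library of ablated RPE at 2dpi. The fitted log2 fold changes were 8.38 ± 2.66 for *krt91*, 7.48 ± 2.56 for *krt4* and 6.45 ± 2.37 for *krt5* (SE), and without MTZ+ DMSO replicate 3, which held most of the DMSO counts, they were 10.41, 10.17 and 12.54. *krt17*, a type I keratin of skin and its appendages in mammals, held 0, 1.45 and 1.98 CPM under rapamycin and 0, 0 and 0.479 under DMSO, which overlapped (2.86 ± 2.34, SE; 8.16 without MTZ+ DMSO replicate 3). Together *krt4*, *krt5*, *krt17* and *krt91* had 7163, 22438 and 2540 counts in the MTZ+ rapamycin libraries and 12, 0 and 104 in the MTZ+ DMSO libraries. In the MTZ+ DMSO library with 0 counts for all 4, the floor of 3 counts allows up to 0.0986 CPM.

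In intact RPE at 2dpi the same 4 genes rested on 1 library. MTZ- rapamycin replicate 1 held 160.5 CPM of *krt4*, 38.1 of *krt5*, 27.2 of *krt17* and 252 of *krt91*, while replicates 2 and 3 held 0 and 10.1, 0.0333 and 2.51, 0.0333 and 1.20, and 0.233 and 1.72 CPM. The MTZ- DMSO libraries held at most 7.06 CPM of *krt4*, 3.11 of *krt5*, 0.47 of *krt17* and 3.11 of *krt91*. The groups overlapped for all 4 genes, and log2 fold changes of 4.23, 3.60, 5.85 and 5.98 became 0.72, 0.17, 1.91 and -0.48 without that replicate 1. Replicate 1 was also the library in which all 23 matched surface markers were counted.

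At 4dpi the levels scattered within groups. *krt4* held 3.24, 0.95 and 16.9 CPM in MTZ- DMSO, 36.6, 4.69 and 60.8 in MTZ+ DMSO, 25.6, 0 and 6.53 in MTZ+ rapamycin, and 0.215, 0 and 0 in MTZ- rapamycin. Intact RPE under rapamycin lay below intact RPE under DMSO, with 7, 0 and 0 counts against 77, 26 and 459 (-6.41 ± 2.08, SE). That value ran from -10.69 without MTZ- rapamycin replicate 1 to -4.66 without MTZ- DMSO replicate 3. The other *krt4* groups overlapped. *krt91* held 67.6, 0 and 77.2 CPM in MTZ- DMSO, 2.33, 1.05 and 0 in MTZ- rapamycin, 17.5, 1.02 and 0.933 in MTZ+ DMSO and 130.4, 0.493 and 0 in MTZ+ rapamycin. It overlapped in all 4 comparisons at 4dpi, and its rapamycin change in ablated RPE went from 2.80 ± 2.34 (SE) to -4.82 without MTZ+ rapamycin replicate 1.

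*krt5* held 4.25, 0 and 3.45 CPM in MTZ- DMSO, 0.123, 0.0703 and 0.0681 in MTZ- rapamycin, 2.39, 0 and 0.233 in MTZ+ DMSO, and 6.79, 0.0352 and 0.0495 in MTZ+ rapamycin. It too overlapped in all 4 comparisons, and its rapamycin change in ablated RPE of 1.43 ± 2.06 (SE) became -4.23 without that same replicate 1. *krt17* was at 0 in 7 of the 12 libraries at 4dpi, reached at most 38 counts in the other 5, and did not pass the filter on low counts. Its MTZ+ rapamycin libraries held 1, 7 and 38 counts where both MTZ+ DMSO and MTZ- rapamycin held 0 in all 3 libraries, at least 3.69-fold and 4.07-fold higher in mean CPM against the floor of 3 counts per library. For ablation under DMSO the log2 fold changes of *krt4*, *krt5* and *krt91* were -2.67, -2.03 and -1.19 at 2dpi and 2.35, -1.47 and -2.82 at 4dpi, all with overlapping groups. The 2dpi directions of *krt5* and *krt91* rested on MTZ- DMSO replicate 2, without which the values were 1.44 and 0.41, and *krt4* was at -1.10 without it. Without MTZ+ DMSO replicate 3 the 2dpi values were -5.40, -8.16 and -3.25. At 4dpi *krt4* was at 4.10 without MTZ- DMSO replicate 3, and *krt5* and *krt91* were at -4.42 and -5.55 without MTZ+ DMSO replicate 1.

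Counted over the 6 members, the groups did not overlap at 2dpi for 2 genes on ablation under DMSO (*krt8*, *krt97*; 43.7% of all genes tested), 0 on ablation under rapamycin (35.5% of all genes), 5 for rapamycin in ablated RPE (all but *krt17*; 16.7% of all genes) and 1 for rapamycin in intact RPE (*krt97*; 15.5% of all genes). At 4dpi they did not overlap for 2 genes on ablation under DMSO (*krt8*, *krt97*; 46.9%), 3 on ablation under rapamycin (*krt8*, *krt97* and the unfitted *krt17*; 41.4%), 1 for rapamycin in ablated RPE (*krt17*; 24%) and 2 for rapamycin in intact RPE (*krt4*, *krt97*; 24.6%). *krt17* at 4dpi is not among the genes tested behind these shares, and its lowest MTZ+ rapamycin library held 1 count, under the floor of 3 counts. The members were chosen with these contrasts known, so nothing is read from the counts.

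The same runs of counts appeared in keratins of chromosome 19 outside the chosen set. *cyt1*, a type I keratin of the embryonic surface layer, held 525, 3948 and 1235 counts in MTZ+ rapamycin at 2dpi and 0, 0 and 51 in MTZ+ DMSO. *krtt1c19e*, a type I keratin of basal skin cells in zebrafish, held 370, 3288 and 1346 counts against 0, 0 and 36. Neither passed the edgeR test for rapamycin in ablated RPE (adjusted p = 0.288 and 0.138), although *krtt1c19e* did in DESeq2 (6.76, adjusted p = 0.0280). The paper lists both as higher in this contrast by its own test. Across the 24 libraries *cyt1* ran with *krt5* (r = 0.963) and *krt91* (r = 0.905), *krt91* with *krt5* (r = 0.904), and *krt4* with *krt5* (r = 0.798), while *krt8* ran with *krt4*, *krt5*, *krt17* and *krt91* at r from -0.100 to 0.158. *krt97* ran with these 4 genes at r from -0.0498 to 0.214.

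**Figure D3:**
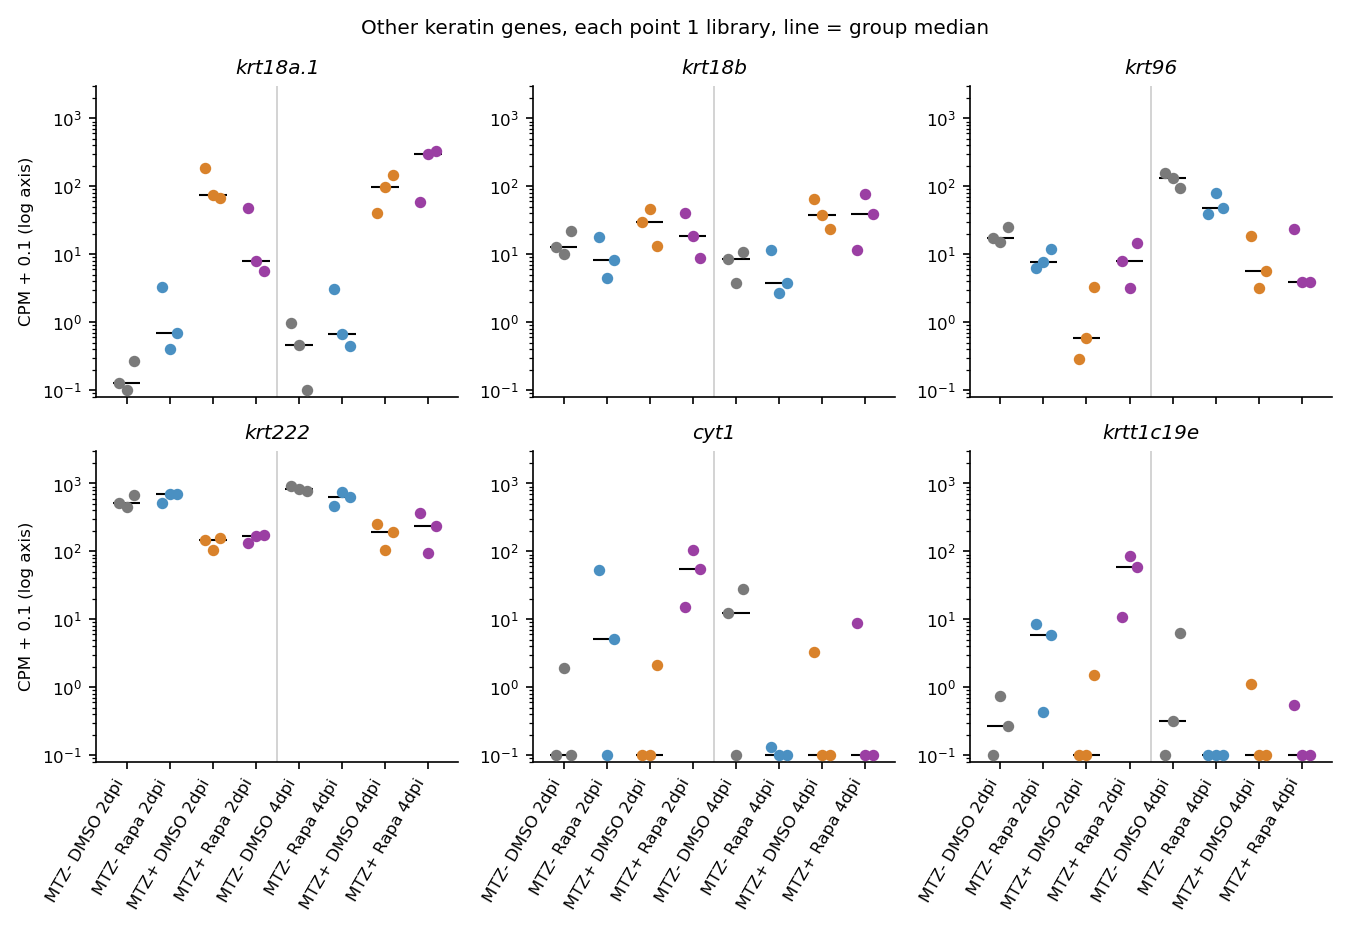
Level of 6 keratin genes outside the chosen set in each library, as CPM + 0.1 on a log axis, by group, with points for libraries and lines for group medians. *krt18a.1* and *krt18b* are shown beside *krt8*, *krt96* and *krt222* beside *krt97*, and *cyt1* and *krtt1c19e* beside the chromosome 19 members. *krt222* is at 93.1 CPM or more in every library, whereas *cyt1* is at 0 in 12 libraries.

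Per-length levels let the keratins be set against each other within a library. In 11 of the 12 MTZ- libraries *krt97*, *krt96* and *krt222* made up 89.5% to 99.7% of all keratin TPM. In the other, MTZ- rapamycin replicate 1 at 2dpi, they made up 34.9%, and *krt4*, *krt5*, *krt17*, *krt91*, *cyt1*, *cyt1l* and *krtt1c19e* 61.8%. In MTZ+ DMSO at 2dpi *krt8*, *krt18a.1* and *krt18b* made up 77.4%, 73.7% and 56.2%. In MTZ+ rapamycin at 2dpi the surface set of 7 genes made up 50.6%, 83.3% and 48.9%, and the *krt8* set 21.6%, 3.34% and 3.97%.

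At 4dpi the *krt8* set held 35.7%, 75.02% and 51.3% of keratin TPM in MTZ+ DMSO and 16.1%, 87.7% and 75.5% in MTZ+ rapamycin. The log2 ratio of *krt8* TPM to the summed TPM of *krt4*, *krt5*, *krt17* and *krt91*, with 0.1 TPM added to each, was 6.60, 8.44 and 3.27 in MTZ+ DMSO at 2dpi and -3.84, -6.28 and -4.01 in MTZ+ rapamycin. These groups did not overlap. At 4dpi the ratio was -0.26, 3.67 and -0.34 in MTZ+ DMSO and -3.73, 6.02 and 2.92 in MTZ+ rapamycin, and it overlapped. In summed keratin TPM the libraries ran from 207 (MTZ+ DMSO at 2dpi, replicate 3) to 1750.4 (MTZ- DMSO at 4dpi, replicate 1).

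**Figure D4:**
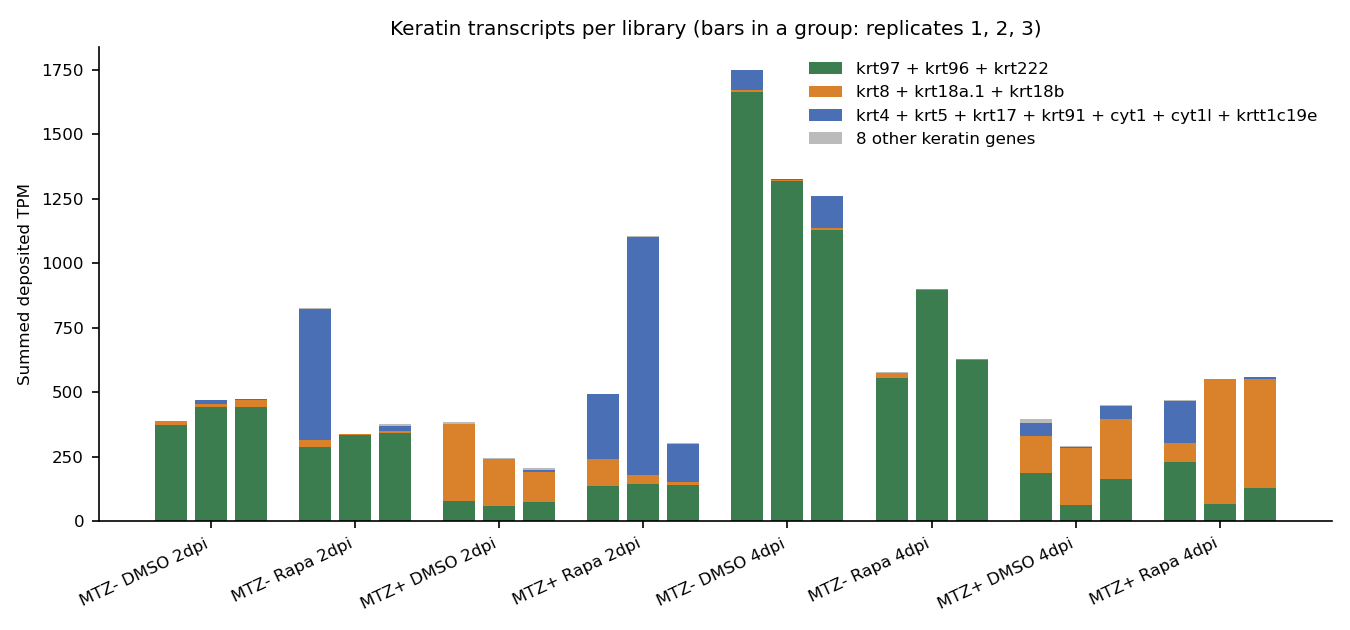
Summed deposited TPM of the keratin genes in each library, stacked by set, with the 3 bars of a group for replicates 1, 2 and 3. Green is *krt97*, *krt96* and *krt222*, orange is *krt8*, *krt18a.1* and *krt18b*, blue is the surface set and grey is the 8 other counted keratins. Green holds at least 89.5% in all intact libraries except MTZ- rapamycin replicate 1 at 2dpi, orange leads in MTZ+ DMSO at 2dpi, and blue leads in MTZ+ rapamycin at 2dpi.

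Markers of surface epithelium that are not keratins were read in the same libraries. Summed over 23 matched genes (of 24 listed), they ran from 41.9 to 53.6 CPM in MTZ- DMSO, 35.7 to 335 in MTZ- rapamycin, 271 to 423 in MTZ+ DMSO and 190.4 to 264 in MTZ+ rapamycin at 2dpi. At 4dpi they ran from 77.2 to 157 CPM in MTZ- DMSO, 27.8 to 54.2 in MTZ- rapamycin, 536 to 720.4 in MTZ+ DMSO and 388 to 766 in MTZ+ rapamycin. The sum was thus higher in ablated RPE under either treatment, apart from the MTZ- rapamycin library named above. At 2dpi it was lower in MTZ+ rapamycin than in MTZ+ DMSO without overlap, while summed *krt4*, *krt5*, *krt17* and *krt91* were higher there. The largest parts of the marker sum by mean CPM over all libraries were *cdh1* (69.4), *epcam* (54.8), *cfl1l* (54.2) and *s100a10b* (34.8). In intact RPE at 4dpi both the marker sum and *krt4* were lower under rapamycin without overlap, and *krt5*, *krt17* and *krt91* overlapped. There 2 of 13 markers tested were called lower (*icn*, *cldni*), where 2.1% of all genes were called in either direction.

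Among the 17 markers tested at 2dpi, 4 rose on ablation under DMSO: *epcam* (8.77 ± 1.57, SE), *cdh1* (4.81 ± 0.93), *cfl1l* (7.27 ± 1.54) and *cldni* (2.92 ± 0.88), with adjusted p from 0.00234 to 0.0305, where 11.3% of all genes tested were called higher. Under rapamycin 1 of 17 rose at 2dpi (*cdh1*; 8.68% of all genes). At 4dpi 5 of 13 rose under DMSO (14.3% of all genes) and 6 of 13 under rapamycin (8.63% of all genes). *icn*, *cdh1*, *cfl1l*, *epcam* and *dsc2l* rose in both, and *cldni* under rapamycin only. *epcam* and *cdh1* encode adhesion proteins of many epithelia. None of the list fell on ablation. The list was chosen with earlier results of these data known, so its calls and shares are given as a description. For rapamycin in ablated RPE at 2dpi the median log2 fold change of the 17 was 0.66, against 0.02 over all genes tested. *agr1*, a marker of skin secretory cells, and *ovol1a* were at 0 in all 3 MTZ+ rapamycin libraries at 2dpi, and *cldn1*, *agr1* and *grhl3* in all 3 MTZ+ DMSO libraries. On the log2(CPM + 1) scale the summed *krt4*, *krt5*, *krt17* and *krt91* ran with the summed markers at r = 0.361 over the 24 libraries. The part of such cells in the keratin values was not tested beyond these values.

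**Figure D5:**
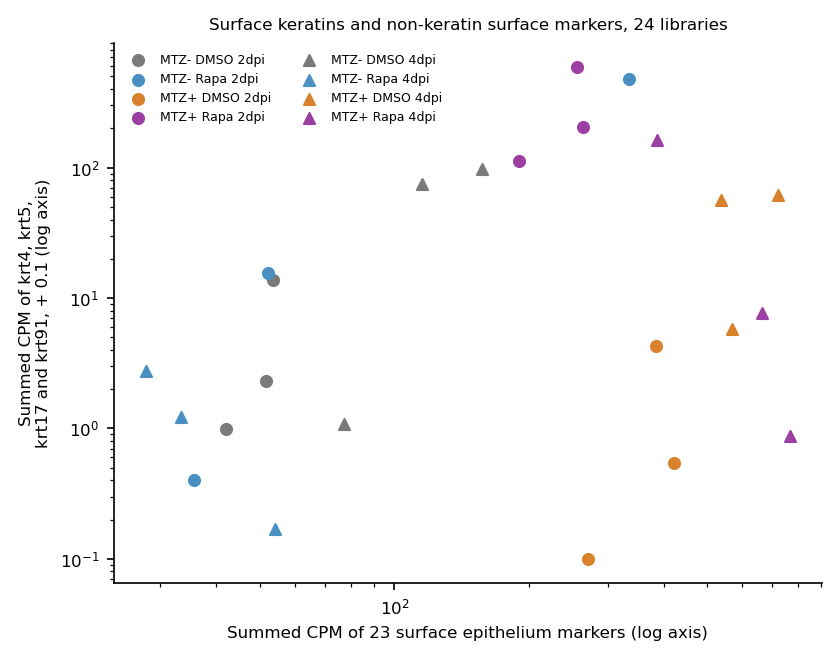
Summed CPM of 23 surface epithelium markers that are not keratins (horizontal, log axis) against summed CPM of *krt4*, *krt5*, *krt17* and *krt91* + 0.1 (vertical, log axis), 1 point per library, circles for 2dpi and triangles for 4dpi. The 3 MTZ+ DMSO libraries at 2dpi lie at 271 to 423 on the horizontal axis and at 0 to 4.15 CPM of these keratins, and the 3 MTZ+ rapamycin libraries at 190.4 to 264 and 111 to 590.2.

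Of the 17 other keratin genes, 10 had enough counts to be tested at 2dpi and 9 at 4dpi. On ablation under DMSO at 2dpi 1 rose (*krt18a.1*) and 2 fell (*krt222*, *krt96*), where 21.2% of all genes tested passed (11.3% higher, 9.9% lower). At 4dpi 4 rose (*krt18a.1*, *krt15*, *krt98*, *krt18b*) and 2 fell (*krt222*, *krt96*), where 23.5% of all genes passed (14.3% higher, 9.14% lower). DESeq2 and the replicate block also called *krt94* higher (adjusted p = 0.0147 and 0.0358). Their median log2 fold change was 0.88 at 2dpi, against 0.04 over all genes tested, and 2.55 at 4dpi, against 0.27. On ablation under rapamycin 1 rose and 1 fell at 2dpi (14.4% of all genes, 8.68% higher and 5.73% lower) and 2 rose at 4dpi (15.6% of all genes, 8.63% higher and 6.94% lower), the medians being 1.39 and -0.53 against 0.02 and 0.03.

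Rapamycin in ablated RPE called 0 of the 10 other keratins at 2dpi with edgeR, where 0.53% of all genes passed. An unadjusted p under 0.05 was seen for 6 of the 10, beside 2374 of all 17536 genes tested. DESeq2 called 2, beside 562 of all genes, and the replicate block called 2, beside 214 of all genes. The paper lists *krt18a.1* as lower and *krtt1c19e*, *cyt1* and *cyt1l* as higher in this contrast by its own test. At 4dpi rapamycin in ablated RPE called 0 of 9 (2.64% of all genes), with 3 under 0.05, beside 3357 of all 17515 genes. DESeq2 called 3 there, *krt94*, *krt98* and *krt15*, all lower, beside 1175 of all genes. The paper lists *krt94* and *krt98* as lower there by its own test. In intact RPE rapamycin called 0 at 2dpi (0.0855% of all genes), with 2 under 0.05, beside 1323 of all genes. DESeq2 called 1 there, *krt18a.1*, beside 225 of all genes. At 4dpi rapamycin in intact RPE called 0 (2.1% of all genes), with 4 under 0.05, beside 3066 of all genes. DESeq2 called 0 there, beside 1070 of all genes. The difference between both rapamycin effects called 0 at 2dpi (0.0228% of all genes), with 3 under 0.05, beside 1340 of all genes. DESeq2 called 2 for it, beside 150 of all genes. At 4dpi the difference called 2, *krt15* and *krt98* (3.32% of all genes, 2.75% in the same direction). This last result was unstable: *krt98* was called in 1 of 12 and *krt15* in 6 of 12 fits that each left out a library.

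*krt15*, which in mammals marks basal skin cells, and *krt98* lie on chromosome 11 with *krt94*. At 4dpi *krt15* had 0, 0 and 0 counts in MTZ- DMSO and 80, 27 and 32 in MTZ+ DMSO, and *krt98* 0, 0 and 0 against 74, 58 and 46. Against the floor of 3 counts per library *krt15* was at least 16.1-fold and *krt98* at least 19.2-fold higher in mean CPM, and both passed the test (adjusted p = 0.00303 and 0.0140). Under rapamycin the ablated libraries held 4, 12 and 10 counts of *krt15* and 1, 0 and 0 of *krt98*. These were low counts, at most 3.60 CPM of *krt15* and 3.33 CPM of *krt98* in any library at 4dpi.

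Other parts of the filament system were read from lists chosen for this work with earlier results of these data known. Their calls and shares are given as a description. Among 15 matched genes of other intermediate filaments, 9 were tested at 2dpi and 10 at 4dpi. On ablation under DMSO 2 of 9 rose and none fell at 2dpi, beside 11.3% of all genes called higher: *lmna*, a nuclear lamin (2.47 ± 0.33, SE, adjusted p = 0.000207), and *gfap*, the filament of glia (3.99 ± 0.90, SE, adjusted p = 0.00590). At 4dpi 4 of 10 rose, beside 14.3% of all genes, among them the lamins *lmnb1* (1.16 ± 0.25) and *lmnb2* (1.63 ± 0.29). Rapamycin in ablated RPE lowered *vim*, the filament of mesenchymal and glial cells, at 4dpi (-1.75 ± 0.43, SE, adjusted p = 0.0476). It was the 1 gene called of 10, where 2.64% of all genes tested were called. On ablation under rapamycin *lmna* rose at 2dpi as the 1 gene called of 9, where 14.4% of all genes were called. At 4dpi *lmna* rose and *vim* fell (-1.38 ± 0.42, adjusted p = 0.0393), of 10 tested, where 15.6% of all genes were called. Summed Müller glia markers, *gfap* included, were 9608 to 16013 CPM in MTZ+ DMSO and 2506 to 3679 in MTZ+ rapamycin at 2dpi, and 21184 to 36044 against 1137 to 5120 at 4dpi. *gfap* was a small part of that sum, at a mean of 3.21 CPM over all libraries against 6599 of *glula* and 3626 of *apoeb*.

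Among 20 matched genes whose proteins anchor keratins at junctions, 17 were tested at 2dpi and 14 at 4dpi. *pleca*, a plectin that links filaments to hemidesmosomes, fell on ablation at 2dpi under DMSO (-2.47 ± 0.26, SE, adjusted p = 4.41e-05) and under rapamycin (-2.61 ± 0.26, SE, adjusted p = 5.16e-05) as the 1 gene called of 17, where 21.2% and 14.4% of all genes tested were called. At 4dpi under DMSO *dsc2l*, a desmosomal cadherin (2.68 ± 0.84), and *pkp2*, a plakophilin (3.12 ± 0.99), rose, and *itga6a*, an integrin (-2.58 ± 0.37), and *dspb*, a desmoplakin (-3.63 ± 1.11), fell, 4 of 14 where 23.5% of all genes were called. On ablation under rapamycin at 4dpi *dsc2l* rose and *pleca* and *itga6a* fell, of 14 tested, where 15.6% of all genes were called. Rapamycin lowered *pleca* in ablated RPE at 4dpi (-1.86 ± 0.30, SE, adjusted p = 0.00964), as the 1 gene called of 14, where 2.64% of all genes were called. That effect differed from the one in intact RPE (difference -1.88 ± 0.41, SE, adjusted p = 0.0318), again the 1 gene called of 14, where 3.32% of all genes were called. The median log2 fold change of the list was -0.01 at 2dpi and 0.35 at 4dpi for ablation under DMSO, beside 0.04 and 0.27 over all genes tested.

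The genes whose log2 CPM ran closest with *krt8* over the 24 libraries, among 18923 genes outside the keratin family, were *ogfrl1* (r = 0.924), *foxi1* (r = 0.919), *pabpc4* (r = 0.918), a gene with a clone name only (r = 0.918) and *dennd2da* (r = 0.912). For the mean of the other 5 members they were *zgc:92380* (r = 0.853), *cldn1* (r = 0.837), *pkp3a* (r = 0.826), *zgc:101810* (r = 0.813) and *si:dkey-248g15.3* (r = 0.772), each at 0 in 10 to 16 libraries. Since *krt97* went its own way, it was also ranked alone, a step chosen after its values were seen. The closest genes were then *si:ch1073-396h14.1* (r = 0.939), *pdpk1a* (r = 0.936), *map1lc3a* (r = 0.933), *CABZ01090041.1* (r = 0.932) and *klhdc3* (r = 0.928), all counted in every library. The mean of *krt4*, *krt5*, *krt17* and *krt91*, likewise ranked after the values were seen, ran closest with *zgc:92380* (r = 0.880), *cldn1* (r = 0.859), *pkp3a* (r = 0.857), *zgc:101810* (r = 0.842) and *epgn* (r = 0.812). Of these *cldn1* is on the surface marker list and *pkp3a* on the junction list above.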

How the data were processed

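eGFP+ cells of 24 libraries were assigned to 8 groups of 3 by the sample titles, and 0 sample columns were left unmapped. cDNA was amplified by a SMART-seq kit. The authors trimmed paired 75-base reads, mapped them with CLC Genomics Workbench (version not given in the sources used here) on GRCz11, and deposited total counts per gene without normalization, in 1 table per time point. The deposited RPKM and TPM values scale those counts by gene length and library size, and were used for the group mean limit (TPM), per-length levels (TPM) or not at all (RPKM). Deposited columns named CPM do not add up to the sum of a CPM column and were taken as a signal, not used. The comparisons the authors deposited (fold changes and p-values) were not used. Handling of multi-mapped reads and of strand is not given in the sources used here.

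Counts were fitted with edgeR 4.0.16 (R 4.3.3, limma 3.58.1; TMM, filterByExpr with a minimum count of 10, glmQLFit robust, glmQLFTest) on the 12 libraries and 4 groups of a time point, without a block, with Benjamini-Hochberg adjustment over all tested genes. Genes were called where the fitted change exceeded 1 on the log2 scale in either direction, with adjusted p below 0.05 and a mean TPM of 1 or more in whichever group was higher. The SE of an edgeR change is its absolute log2 value divided by the square root of the quasi-likelihood F statistic. Being derived from that test, it is shown for the members as a scale of scatter and not read as a test. Printed CPM uses TMM over 24 libraries. Correlations use log2 CPM with a prior count of 2. Alternatives were DESeq2 1.42.0, its size factors in edgeR, no count filter, no TPM limit, only the compared groups, a replicate block, each library left out in turn, and 4dpi without replicate 2 of both MTZ+ groups. Fits were also run on simulated counts for rapamycin in ablated RPE at 2dpi, drawn with dispersions that edgeR had estimated from these libraries. No result given here rests on that run.

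The members and all lists were chosen with earlier results of these data known. The calls and shares of listed genes, RPE markers included, are therefore a description and no independent test. Named genes are the 6 members, the other keratins by name (at most 5 called per direction), the 5 most alike genes and listed markers. The pairing comes from a shared date in the raw names of libraries with the same number: their deviations from the group means correlated at 0.12 on average over 18 pairs at 2dpi (-0.04 to 0.29) and at 0.04 at 4dpi (-0.05 to 0.21). Replicates are separate pools of larvae. Total counts ran from 20607731 to 37189527 with a median of 32437827.5, and edgeR's biological coefficient of variation came to 0.635 (2dpi) and 0.619 (4dpi). The floor of 3 counts equals 0.0742 to 0.135 CPM per library, and covers counting error only, since reads carry no molecular identifiers. Sequences were not used here.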

Additional observations from a re-analysis of the deposited data

Results flagged for a closer look

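The effect of rapamycin differed between ablated and intact RPE at 4dpi for *krt98* (difference in log2 fold change -14.02 ± 2.85, SE, adjusted p = 0.0323) and for *krt15* (-9.34 ± 1.79, SE, adjusted p = 0.0261), by the interaction term of edgeR's quasi-likelihood fit. The libraries held 0, 0 and 0 counts of either gene in MTZ- DMSO, 32, 0 and 11 of *krt98* and 15, 11 and 10 of *krt15* in MTZ- rapamycin, 74, 58 and 46 of *krt98* and 80, 27 and 32 of *krt15* in MTZ+ DMSO, and 1, 0 and 0 of *krt98* and 4, 12 and 10 of *krt15* in MTZ+ rapamycin. The first was called in 1 of 12 and the second in 6 of 12 fits that left out a library each. Without replicate 2 of both MTZ+ groups, whose raw names carry reversed letters, neither passed (-13.78, adjusted p = 0.124, and -10.17, adjusted p = 0.0791). With a group at 0, the fitted sizes depend on the prior count and are no bound. In mean CPM *krt98* was at least 24.1-fold lower under rapamycin than under DMSO in ablated RPE, against the floor of 3 counts per library, with *krt15* at 0.266 against 1.85 CPM. Summed Müller glia markers, of which *glula* and *apoeb* were the largest parts, moved the same way in ablated RPE at 4dpi. They ran from 1137 to 5120 CPM in MTZ+ rapamycin and from 21184 to 36044 in MTZ+ DMSO, and their part in these values was not tested.

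*krt97* at 2dpi moved up under rapamycin in all 3 same-numbered pairs of ablated RPE and down in all 3 of intact RPE, a difference in log2 fold change of 6.11 ± 0.61 (SE). This difference was not tested, because *krt97* was chosen with its values known.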

How the results depend on the processing

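Over the 15 calls made for other keratin genes, 166 of 200 alternative fits kept the call, and 325 of 367 alternative values of the members moved by less than 1 SD of the replicates. That SD reached 3.43 log2 units (*krt91*), so a move within it can change the sign. *krt4* for ablation under rapamycin at 2dpi went from 0.58 to -0.57 without MTZ+ rapamycin replicate 2, within an SD of 3.10. The second count is therefore no measure of stable direction. It covers DESeq2's size factors in edgeR, the replicate block and the fits that left out libraries, and not the other alternatives. DESeq2 called 2 other keratins for rapamycin in ablated RPE at 2dpi, 1 in intact RPE and 2 for the difference of both effects (edgeR 0 each). Of all 17536 genes it called 562, 225 and 150 there. At 4dpi it called 4 for ablation under rapamycin (edgeR 2) and 3 for rapamycin in ablated RPE (edgeR 0). Of all 17515 genes it called 3661 and 1175 there. Without the count filter 1 passed for ablation under rapamycin at 2dpi, beside 2457 of 23507 genes. With only the compared groups 1 passed for ablation under rapamycin at either time, beside 2305 of 15758 genes at 2dpi and 2228 of 15726 at 4dpi. For rapamycin in ablated RPE at 4dpi 1 passed as well, beside 231 of 16068 genes. Without the TPM limit 1 passed for rapamycin in intact RPE at 4dpi (*krt15*, adjusted p = 0.0472), beside 401 of 17515 genes. Without replicate 2 of both MTZ+ groups 1 passed for ablation under rapamycin and 0 for the difference of both effects at 4dpi. Of 17843 genes 1642 and 86 passed there. The cause was not tested.

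With the replicate block 2 other keratins passed for rapamycin in ablated RPE at 2dpi (*krt96* and *krt18a.1*), beside 214 of all 17536 genes. At 4dpi 4 passed for ablation under rapamycin, beside 2770 of all 17515 genes. For the difference of both effects at 4dpi 1 passed, beside 489 of all genes, and *krt15* was lost (adjusted p = 0.0618). The block added *krt94* for ablation under DMSO at 4dpi. The block changed no other call.

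Leaving out each library in turn gave 1 to 2 calls for ablation under rapamycin at 2dpi, 0 to 1 for rapamycin in ablated RPE at 2dpi, 1 to 4 for ablation under rapamycin at 4dpi (4 without MTZ+ rapamycin replicate 1) and 0 to 2 for the difference of both effects at 4dpi. There 0 were called without MTZ- DMSO replicate 1 or 2, MTZ- rapamycin replicate 1, MTZ+ DMSO replicate 1, or MTZ+ rapamycin replicate 2 or 3. The counts of the other comparisons stayed within 1.5 times. Scatter within groups limits *krt4*, *krt5*, *krt17* and *krt91*, whose fitted changes in the 4 comparisons had an SE of up to 2.66 on the log2 scale. For *krt91* the counts ran from 7 to 8547 within MTZ- rapamycin at 2dpi.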
